A study of Mus musculus with 24 samples.

Results

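Gene expression was compared between the dorsal and the ventral root of mice at 3 weeks of age (3 W). The comparison used the 6 arrays of that age out of the 24 of the series, all on 1 slide. They were chosen by their stage label: 3 held RNA of afferent nerve (AN) fibres, the dorsal root, and 3 held RNA of efferent nerve (EN) fibres, the ventral root. All mice were C57BL/6, and both roots were taken at spinal segments L4-L6, with neither an altered allele nor a treatment in the labels. The same roots at birth (P0) and at the other ages, 1 W and 5 W, with 3 arrays for each root and age, served as a reference in a few sentences. The fibres of the animals of each group were collected into 1 tube per the methods, and the 3 arrays of a group were called independent experiments. Whether the arrays came from separate animals was not given in the sources used here, so each p-value measures only the spread between these arrays, which may be technical.

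The dorsal root carries the central axons of sensory neurons, whose cell bodies lie in the dorsal root ganglion, and the ventral root carries the axons of motor neurons, whose cell bodies lie in the spinal cord. Most RNA of a root comes from its resident cells: Schwann cells, which wrap large axons in myelin or hold bundles of thin ones without it, fibroblasts, vessel cells and macrophages. Motor axons are mostly large and myelinated, while many sensory axons are thin and unmyelinated. In such bulk tissue, fewer cells of a type and less RNA per cell cannot be told apart.

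The labelled tissue was checked first. The brightest probe of Pmp22, a protein of peripheral myelin, had log2 values between 18.51 and 18.55 on all 6 arrays. At the top of the scale quantile normalization makes values alike across arrays, so these show presence and not equal levels. The 3 tested Pmp22 probes had differences between the roots from -0.66 to 0.05, and none was called. Sox10, the transcription factor of the Schwann lineage, was well above background on every array. Slc18a3, which loads acetylcholine into vesicles and marks motor neurons, had 6.10, 6.66 and 6.83 in AN against 7.47, 6.81 and 6.64 in EN, and the groups overlapped. Mnx1 and Slc5a7, motor neuron markers too, were not well above background on all arrays of either root. Chat, which makes acetylcholine in motor neurons, was higher in AN by 0.385 and 0.409 at its 2 tested probes, and neither was called. None of these motor neuron markers set the ventral root apart.

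The third AN array stood apart. Its correlation with the other 5 arrays over the tested probes was 0.943 to 0.966, while the other 10 pairs of arrays had 0.979 to 0.994. At 2340 probes it lay over 2-fold above the mean of AN replicates 1 and 2, and at 550 it lay as far below. No other 3 W array lay over 2-fold above its 2 group mates at more than 295 probes. The 10 gene symbols with the largest excess on it held genes of sensory neurons, among them Prdm12, Mrgprd, Avil, Isl2 and Pirt. Tjp3, of tight junctions, led them at 14.17 against 5.14 on both other AN arrays, but its spot on that array was marked an outlier by the scanner software. Calca, which encodes the pain peptide CGRP, read 11.32 and 10.75 on AN replicates 1 and 2 and 16.50 on AN replicate 3, against 9.73, 8.45 and 9.77 in EN. Prph, an intermediate filament of peripheral neurons, read 10.95, 10.35 and 15.92 in AN. The list of 20 pan-neuronal genes averaged 11.94, 11.66 and 14.97 on the 3 AN arrays and 11.10 to 11.42 in EN. Each result is therefore given with all 6 arrays and, for many of those that move, with the 5 that remain without AN replicate 3. Where only all 6 arrays are given, a high value on AN replicate 3 enters the size of the difference. The part of this array's neuronal signal in the results was not tested.

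**Figure D1:**
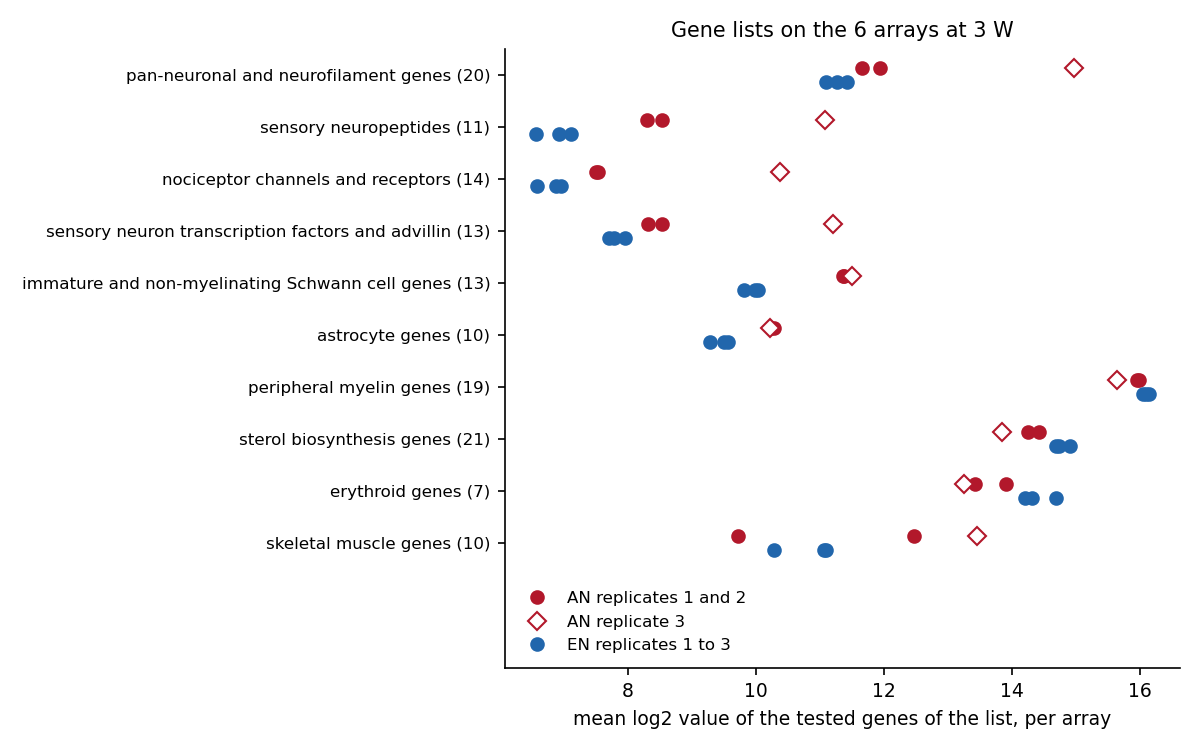
Mean log2 value of the tested genes of 10 gene lists on each of the 6 arrays at 3 W (number of tested genes in brackets; filled red circles AN replicates 1 and 2, open red diamonds AN replicate 3, blue circles the 3 EN arrays). On the neuronal lists AN replicate 3 lies far to the right of the other AN arrays (14.97 against 11.94 and 11.66 for pan-neuronal genes), while on the immature Schwann cell list the 3 AN arrays lie together at 11.36 to 11.50.

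Promoters of peptide and secretory granule genes that were higher in AN are shown for the letters they do or do not share. They are those of Sst and Scg2, which hold the letters TGACGTCA, the binding motif of cAMP response element factors, in the 250 bases before the start of transcription, and of Npy and Tac2, which do not, nor do those of Adcyap1 and Tac1. The motif reads the same on both strands and stands in capitals. The sequences are RefSeq's on GRCm38.p6, printed 5′ to 3′ along the gene, and in Sst the motif starts 48 bases and in Scg2 68 bases before the start.
Sst, chr16:23890845-23891094, minus strand: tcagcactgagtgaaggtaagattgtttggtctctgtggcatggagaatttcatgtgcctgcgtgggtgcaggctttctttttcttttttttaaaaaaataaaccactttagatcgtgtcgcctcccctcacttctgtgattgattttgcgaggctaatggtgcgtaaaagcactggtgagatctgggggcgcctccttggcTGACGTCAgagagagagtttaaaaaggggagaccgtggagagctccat
Scg2, chr1:79440027-79440276, minus strand: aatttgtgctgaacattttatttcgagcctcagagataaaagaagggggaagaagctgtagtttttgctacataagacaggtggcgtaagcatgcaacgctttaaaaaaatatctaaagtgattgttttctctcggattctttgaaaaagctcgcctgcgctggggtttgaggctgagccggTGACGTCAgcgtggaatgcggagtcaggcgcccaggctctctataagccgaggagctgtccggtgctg
Npy, chr6:49822460-49822709, plus strand: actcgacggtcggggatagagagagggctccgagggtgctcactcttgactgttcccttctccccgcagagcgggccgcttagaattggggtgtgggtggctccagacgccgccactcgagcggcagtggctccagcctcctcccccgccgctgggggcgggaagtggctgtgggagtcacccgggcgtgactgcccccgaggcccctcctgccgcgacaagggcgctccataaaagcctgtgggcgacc
Tac2, chr10:127724228-127724477, plus strand: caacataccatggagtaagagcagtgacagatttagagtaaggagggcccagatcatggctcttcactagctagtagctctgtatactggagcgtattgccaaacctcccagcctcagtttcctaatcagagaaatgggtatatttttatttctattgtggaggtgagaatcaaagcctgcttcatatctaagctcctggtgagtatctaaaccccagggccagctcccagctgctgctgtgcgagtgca

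Among the 32851 promoters that RefSeq gave, 508 (1.55%) held the motif in that window. By gene it was 323 of 11405 tested genes with a promoter there (2.83%), 6 of 187 genes called higher in AN (3.21%) and 0 of 106 called lower. The share among the genes higher in AN was near that of all tested genes, so the letters are a description of these promoters only.

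A probe was called where its limma p-value, adjusted by Benjamini-Hochberg over all 34045 tested probes, was below 0.05 and the roots differed over 2-fold. With all 6 arrays 781 probes (2.29% of those tested) were called, 459 higher in AN (1.35%) and 322 lower (0.946%). Without AN replicate 3 there were 1277 (3.75%), 889 higher (2.61%) and 388 lower (1.14%). The 2 sets shared 678 probes, 437 of them higher in AN. With all 6 arrays, differences past 4-fold were mostly upward: 170 called probes were that much higher in AN and 17 that much lower. Of the 459 probes called higher, 80 had AN replicate 3 over 2-fold above the mean of the other AN arrays. The count past 4-fold was not made without that array. At 147 called probes, 120 of them higher in AN, the lower root was not well above background on any of its arrays, so only a bound on the fold can be given. The median difference over all tested probes was -0.03 on the log2 scale, and -0.01 without AN replicate 3.

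The count rested on each array. It was 462 without AN replicate 1, 245 without AN replicate 2, 82 without EN replicate 1, 118 without EN replicate 2 and 155 without EN replicate 3. The share of the calls that were higher in AN was 58.8% with all 6 arrays and 69.6% without AN replicate 3, and with the spread shared over all 24 arrays of the series 744 probes were higher and 308 lower. With the replicate number as a block 707 probes were called (2.08%), 451 higher (1.32%) and 256 lower (0.752%). At an unadjusted p below 0.05 there were 1575 (4.63%), 1024 higher (3.01%) and 551 lower (1.62%). At 1 probe per gene symbol 410 of 14972 symbols were called (2.74%), and 708 without AN replicate 3 (4.73%).

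**Figure D2:**
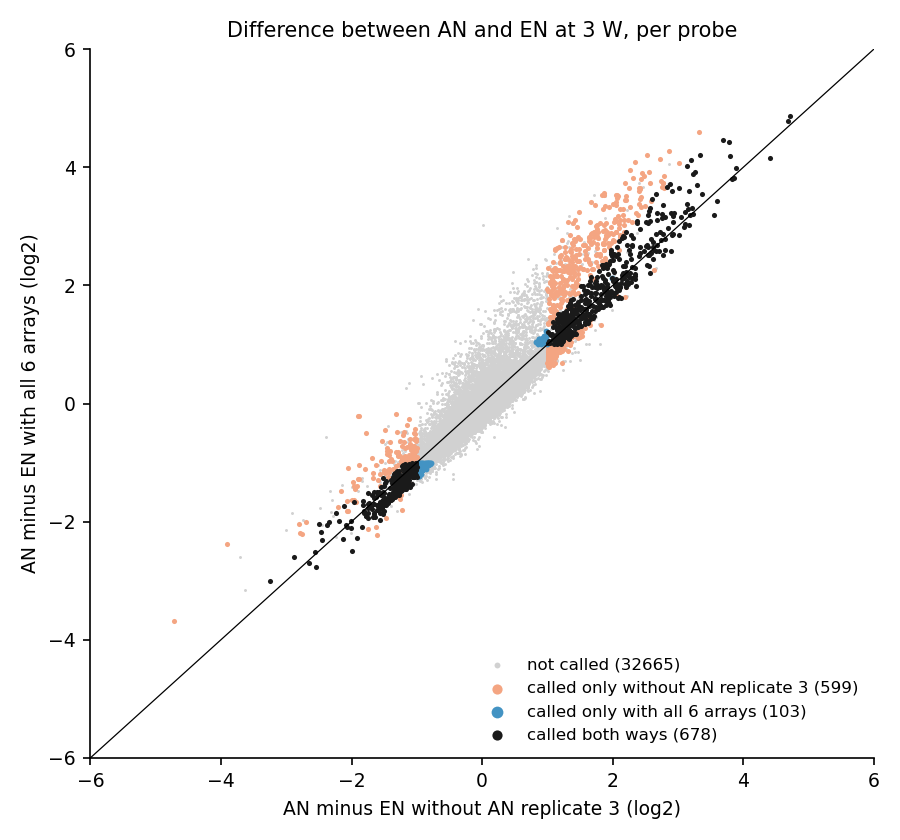
Difference between AN and EN at 3 W for each of the 34045 tested probes, without AN replicate 3 (x axis) and with all 6 arrays (y axis), both on the log2 scale, with the line of equal values. The 678 probes called both ways follow the line, while of the 452 called higher only without AN replicate 3, 300 had that array over 2-fold above the other AN arrays and lie above the line.

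Among the largest rises in AN were genes for neuropeptides and for proteins of secretory vesicles. Npy, neuropeptide Y, read 7.28, 7.74 and 6.72 in AN, while none of the EN arrays was well above background, so it was at least 5.18-fold higher in AN (adjusted p = 0.00666). Sst, which encodes the inhibitory peptide somatostatin, read 11.10, 11.17 and 11.54 in AN and 8.07, 8.02 and 8.52 in EN. The roots did not overlap, and the Sst difference of 3.07 ± 0.19 (SE, adjusted p = 0.00364) was an 8.38-fold higher level in AN. Tac2, the gene of neurokinin B, read 9.19, 10.10 and 9.61 in AN against 5.10, 5.85 and 6.52 in EN, a difference of 3.81 ± 0.40 (SE, adjusted p = 0.0115). Neither Npy, Sst nor Tac2 read far higher on AN replicate 3 than on the other AN arrays.

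Scg2 and Adcyap1 did. Scg2, secretogranin II, a core protein of dense-core vesicles, read 10.87, 10.80 and 13.43 in AN and 7.39, 6.66 and 8.44 in EN, a difference of 4.20 ± 0.81 (SE, adjusted p = 0.045) that was 3.34 (adjusted p = 0.0184) without AN replicate 3. Adcyap1, the peptide PACAP, read 7.78, 7.90 and 10.50 in AN and 5.00, 3.74 and 5.35 in EN, where 2 of the 3 arrays were well above background. Its difference was 4.03 ± 0.81 (SE, adjusted p = 0.0491) with all 6 arrays and 3.14 (adjusted p = 0.0186) without the third, and a dimmer Adcyap1 probe passed only without it (adjusted p = 0.0529 and 0.000744).

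In the list of sensory neuropeptides 3 of 11 tested members were higher in AN (Npy, Sst and Adcyap1) and none lower, where 1.76% of 14972 gene symbols, taken at 1 probe each, were called higher and 0.975% lower, the background for every list count with all 6 arrays given here. Its median difference was 3.05, and 1.39 without AN replicate 3. Tac1, the gene of substance P, joined without that array: it read 10.07 and 10.20 on AN replicates 1 and 2 and 14.23 on the third, against 7.41 to 7.82 in EN, with an adjusted p of 0.096 with all 6 arrays and of 0.00281 (difference 2.56) with 5. Calca was called in neither setting (adjusted p = 0.215 and 0.0598), and neither were Gal, which encodes galanin, and Nmb, neuromedin B.

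Outside the peptides, the 12 largest rises held Serpinb1b, of a family of serine protease inhibitors, which read 8.72, 8.74 and 9.18 in AN and was not well above background in EN, at least 16.1-fold higher (adjusted p = 0.0143). Its probe lies on chromosome 13 at 33185999 to 33186058 of mm9, the build of the array files. Sytl3, a partner of Rab27 in vesicle docking, read 10.93, 11.21 and 11.39 in AN against 7.28, 6.00 and 5.86 in EN, a difference of 4.79 ± 0.38 (SE, adjusted p = 0.00666). All 4 of its tested probes, with differences from 2.01 to 4.79, were called. Calb1, the calcium buffer calbindin, read 8.38, 8.24 and 10.26 in AN and was not well above background in EN, at least 16.9-fold higher (adjusted p = 0.0149). Without AN replicate 3 this bound was 10.8-fold. The dimmer Calb1 probe was called only without that array (adjusted p = 0.0738 with all 6).

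The rest of the 12 largest rises had varied roles. Pcdh8, a protocadherin, was at least 4.82-fold higher (adjusted p = 0.00758), Cacng5, an auxiliary subunit of AMPA receptors, at least 4.70-fold (adjusted p = 0.0246) and Fstl5 at least 6.94-fold (adjusted p = 0.041), each with no EN array well above background. Without AN replicate 3 these bounds were 3.66-fold for Pcdh8, 2.72-fold for Cacng5 and 3.88-fold for Fstl5. A dimmer Fstl5 probe did not pass with all 6 arrays (adjusted p = 0.0812). Tyrp1, an enzyme of melanin synthesis, read 9.54, 9.57 and 11.51 in AN and 5.80, 6.35 and 6.71 in EN (difference 3.92, adjusted p = 0.0246). Tcerg1l was at least 4.15-fold higher (adjusted p = 0.0219), and at least 2.65-fold without AN replicate 3. All 12 were called without AN replicate 3 as well, as the rule for naming them required.

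**Figure D3:**
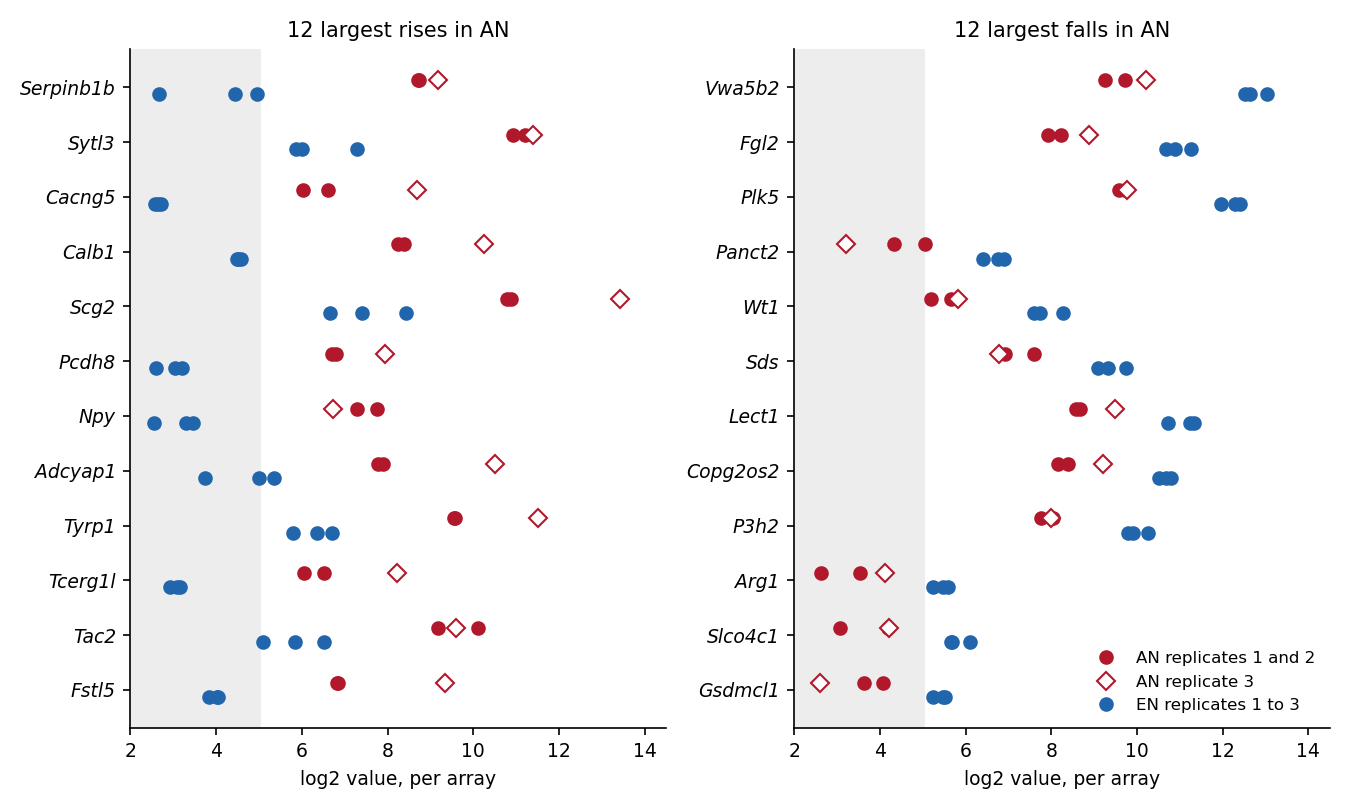
Log2 value of the 12 largest rises and the 12 largest falls in AN on each of the 6 arrays at 3 W (filled red circles AN replicates 1 and 2, open red diamonds AN replicate 3, blue circles EN). The grey band ends at 5.02, the highest of the 6 arrays' lowest values well above background. In every row the AN and EN arrays are apart, as the rule for naming these genes required. AN replicate 3 is the highest AN array for Calb1 (10.26) and Scg2 (13.43) but not for Npy (6.72) or Tac2 (9.61).

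Genes of immature and non-myelinating Schwann cells were higher in AN on all 3 arrays alike. Of 13 tested members 8 were called higher and none lower, with a median difference of 1.32 that was 1.29 without AN replicate 3, and the list averaged 11.38, 11.36 and 11.50 on the AN arrays and 9.82 to 10.04 on the EN arrays. Ncam1, the adhesion molecule that Schwann cells keep around unmyelinated axons, read 12.79, 12.69 and 12.74 in AN and 10.90, 10.87 and 10.81 in EN. The arrays of each root lay close together and the roots did not overlap, with a difference of 1.88 ± 0.10 (SE, adjusted p = 0.00283), and all 5 tested Ncam1 probes were called (1.59 to 2.52).

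Transcription factors were part of that group, or of a separate list of 9 Schwann cell factors, of which Pou3f1 was the one call. Pax3, of neural crest and early Schwann cells, read 8.70, 8.53 and 8.17 in AN and 5.59, 5.48 and 5.26 in EN, a difference of 3.02 (adjusted p = 0.00334). Sox2, which holds Schwann cells in the immature state, read 9.60, 9.76 and 9.26 against 8.05, 8.21 and 8.03 (difference 1.44, adjusted p = 0.012). Id2, an inhibitor of differentiation, differed by 1.17 (adjusted p = 0.00941). Pou3f1, a factor of promyelinating cells, read 14.21, 14.31 and 13.58 against 12.67, 12.84 and 13.00 (difference 1.20, adjusted p = 0.041) and did not pass with the replicate number as a block (adjusted p = 0.075), while Egr2, which drives myelination, differed by 0.11 (adjusted p = 0.718).

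Receptors and adhesion proteins completed the group. Erbb3, the neuregulin receptor of Schwann cells, read 14.47, 14.59 and 14.06 in AN and 13.17, 13.28 and 13.14 in EN (difference 1.18, adjusted p = 0.0218), and its dimmer probe did not pass (0.69, adjusted p = 0.106). Scn7a, a sodium channel found in non-myelinating Schwann cells, was higher by 1.93 (adjusted p = 0.0248), Cdh2, N-cadherin, by 1.41 (adjusted p = 0.00933) and Ednrb, an endothelin receptor, by 1.32 (adjusted p = 0.0106). Gfap, a filament of non-myelinating Schwann cells and astrocytes, read 11.03, 10.97 and 10.87 against 9.14 to 10.28 and did not pass (adjusted p = 0.0792). Kit, a receptor of melanocytes and mast cells, was higher by 1.31 on its brightest probe (adjusted p = 0.0286), as were both other probes, while Tpsb2 and Cma1, mast cell proteases, differed by 0.05 and 0.09 (adjusted p = 0.906 and 0.742).

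Genes of peripheral myelin differed little. Of 19 tested members 1 was lower in AN and none higher, and the median difference was -0.23, or -0.15 without AN replicate 3. The one was Pmp2, a lipid-binding protein of myelin, which read 12.46, 12.18 and 11.73 in AN and 14.14, 13.71 and 14.09 in EN, a difference of -1.86 ± 0.22 (SE, adjusted p = 0.015) or 3.62-fold. Mag, myelin-associated glycoprotein, differed by -0.41 (adjusted p = 0.123). All 21 tested genes of sterol biosynthesis and uptake lay below 0 with a median of -0.61, and none was called on its brightest probe. Tm7sf2, a sterol reductase, had a difference of -0.93 there (adjusted p = 0.0364), short of 2-fold, and was called on its dimmer probe (-1.04, adjusted p = 0.0288) but not without AN replicate 3. Their list averages were 14.42, 14.25 and 13.85 on the AN arrays and 14.69 to 14.90 on the EN arrays, and the median was -0.41 without AN replicate 3.

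A pair of related glycan enzymes differed in opposite directions. B3gat1, which makes the HNK-1 sugar epitope known from motor Schwann cells, read 9.83, 9.65 and 9.73 in AN and 10.98, 10.63 and 10.83 in EN, lower in AN by a difference of -1.08 (adjusted p = 0.0151), though its second, dimmer probe did not differ (0.00, adjusted p = 0.997). B3gat2, its relative, read 5.71, 5.76 and 5.47 in AN and was not well above background in EN, at least 1.71-fold higher in AN (adjusted p = 0.0227). Of 16 tested growth factors and glycan enzymes in that list these 2 were the only ones called. Igf1 was lower in AN by a difference of -0.71 (adjusted p = 0.0364), short of 2-fold.

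The genes highest in the ventral root were led by Vwa5b2, of unknown function in nerve, which read 9.25, 9.72 and 10.22 in AN and 12.52, 13.04 and 12.63 in EN, an 8.01-fold lower level in AN (log2 SE 0.27, adjusted p = 0.00851). A second, dimmer Vwa5b2 probe ran the other way, with 5.31, 5.72 and 6.64 in AN, no EN array well above background and a call as higher in AN (adjusted p = 0.039). It was the only gene symbol with calls in both directions. Fgl2, a fibrinogen-like protein, read 8.22, 7.92 and 8.89 against 10.89, 10.68 and 11.27 (difference -2.61, adjusted p = 0.0119). Plk5, a member of the polo-like kinase family, read 9.72, 9.58 and 9.78 against 12.29, 11.96 and 12.40 (difference -2.52, adjusted p = 0.00341).

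The rest of the 12 largest falls were genes of varied kinds. Wt1, the Wilms tumour transcription factor, read 5.19, 5.65 and 5.83 in AN and 7.74, 7.60 and 8.28 in EN (difference -2.31, adjusted p = 0.0116). P3h2, which hydroxylates prolines of collagen, differed by -2.05 on its brighter probe (adjusted p = 0.00631), and its second probe was called too. Lect1, now named Cnmd, the gene of chondromodulin, differed by -2.18 (adjusted p = 0.0195), Sds, serine dehydratase, by -2.30 (adjusted p = 0.0143) and Copg2os2 by -2.06 (adjusted p = 0.02). Arg1, arginase, was at least 1.64-fold, Slco4c1 at least 2.15-fold and Gsdmcl1 at least 1.62-fold higher in EN, none of them well above background on any AN array. Panct2 read 4.33, 5.06 and 3.21 against 6.76, 6.40 and 6.90 (adjusted p = 0.041), with 1 AN array well above background. With the replicate number as a block, Panct2 (adjusted p = 0.0669) and Gsdmcl1 (adjusted p = 0.062) did not pass.

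The motor peptide gene Uts2, urotensin II, read 3.10 and 3.19 on AN replicates 1 and 2, neither well above background, 6.28 on AN replicate 3, and 8.01, 7.62 and 7.99 in EN. It did not pass with all 6 arrays (difference -3.68, adjusted p = 0.0635), but without the third it was at least 9.60-fold higher in EN (adjusted p = 0.000837). None of the 14 tested motor neuron and cholinergic genes was called with all 6 arrays. Without AN replicate 3 Uts2 was the one called lower in AN, and 3 were called higher: Ache, acetylcholinesterase (difference 1.32, adjusted p = 0.0179), and Isl2 and Prph, which sensory neurons express too (1.84 and 1.32, adjusted p = 0.0199 for both). Chat, which makes acetylcholine, read 9.31, 9.20 and 9.36 in AN and 9.05, 8.82 and 8.85 in EN (difference 0.38, adjusted p = 0.111).

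Neurofilament genes read far higher on AN replicate 3 as well. Nefh, the heavy subunit abundant in large axons, read 12.34, 11.80 and 17.05 in AN and 14.01, 13.89 and 13.95 in EN. With all 6 arrays the difference was -0.22 (adjusted p = 0.937), and without AN replicate 3 it was -1.88 (adjusted p = 0.00677), so the direction among the 5 arrays was toward EN. Nefl read 13.66, 12.93 and 18.03 against 12.61 to 13.06 and Nefm 12.60, 12.10 and 16.97 against 11.85 to 12.23, and neither was called in either setting on its brightest probe, while a dimmer Nefl probe was called without AN replicate 3 (1.45, adjusted p = 0.0141). Of 20 pan-neuronal genes 1 was called with all 6 arrays, Mapt, the gene of tau, higher in AN by 1.49 (adjusted p = 0.0398, or 0.0653 with the replicate block), and 7 higher and 1 lower without AN replicate 3. The median of that list went from 1.83 to 0.56.

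None of 14 nociceptor channels and receptors was called with all 6 arrays and 4 were without AN replicate 3, where 3.46% of gene symbols were called higher in AN and 1.27% lower, the background for every list count without that array. Scn10a, the sodium channel Nav1.8 of pain fibres, read 9.18, 8.95 and 14.03 in AN against 7.39, 6.57 and 7.61 in EN, so all AN arrays lay above all EN arrays (adjusted p = 0.179 with all 6, 0.0237 with 5, difference 1.87). A dimmer Scn10a probe had -0.44 with 5 arrays (adjusted p = 0.225). Asic1 and Asic3, acid-sensing channels, differed by 1.90 and 1.73 without the array (adjusted p = 0.00897 and 0.0126), and Htr3a, a serotonin-gated channel, was at least 1.68-fold higher (adjusted p = 0.00655). Trpv1, the capsaicin receptor, read 5.96, 6.22 and 9.04 against 5.89, 6.05 and 6.34, a difference of 0.00 without the array. Among 13 sensory transcription factors the count went from none to 4 higher, with Avil, the actin-binding protein advillin of sensory neurons, at 10.42, 9.79 and 15.20 against 7.94 to 8.63 (difference 1.87, adjusted p = 0.0177 without the array).

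Receptors that sit on sensory terminals showed 2 of 11 called higher with all arrays and 7 of 11 without the third, with a median of 2.12 and 1.46. Sstr1, a receptor for somatostatin, read 6.13, 6.41 and 7.47 in AN and was not well above background in EN, at least 3.48-fold higher (adjusted p = 0.0161). Without AN replicate 3 this bound was 2.64-fold. Cnr1, the cannabinoid receptor, read 7.61, 7.76 and 10.21 against 5.13, 4.22 and 5.20, with 1 EN array well above background (difference 3.68, adjusted p = 0.0471). Oprk1, the kappa opioid receptor, did not pass with all arrays (adjusted p = 0.0548). Of the neurotrophic factor receptors Gfra2, which binds neurturin, and Met, the receptor of hepatocyte growth factor, were called. Met read 10.62, 10.59 and 9.96 against 8.96, 8.97 and 8.76 (difference 1.49, adjusted p = 0.0212).

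Synaptic adhesion genes were higher in AN at 3 of 12 tested members with all arrays and at 6 without AN replicate 3, and the median of 1.5 became 1.25. Lrrtm1, a postsynaptic partner of neurexins, read 9.83, 9.74 and 9.76 in AN and 7.71, 7.48 and 7.56 in EN, a difference of 2.20 ± 0.11 (SE, adjusted p = 0.00233). Cbln1, cerebellin, which links neurexins to a glutamate receptor, differed by 2.67 (adjusted p = 0.00926). Nlgn1, neuroligin 1, read 7.43, 7.52 and 7.54 against 6.47, 5.99 and 5.99 (difference 1.34, adjusted p = 0.0149).

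Subunits of inhibitory and excitatory receptors gave mixed counts. Of 14 tested GABAA receptor subunits, each taken at its brightest probe, 2 were called with all arrays and 5 without AN replicate 3, all higher in AN. Dimmer probes of Gabra4 (difference 1.498 with all arrays) and Gabrg3 (3.288) were called higher in AN in both settings. Gabrb1 read 7.03, 7.36 and 7.26 against 4.70, 5.06 and 3.95, with 1 EN array well above background (difference 2.64, adjusted p = 0.0119), and Gabra3 read 9.19, 8.82 and 8.83 against 7.96, 7.73 and 7.96 (difference 1.06, adjusted p = 0.0227). Gabrb2 did not pass in either setting (adjusted p = 0.194 and 0.0373, the latter at a difference of 0.71).

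Among 16 ionotropic glutamate receptor subunits 3 were higher in AN and 1 lower in both settings. Grik3, a kainate receptor subunit, read 8.75, 8.48 and 8.94 against 5.58, 5.41 and 5.70, a difference of 3.16 ± 0.16 (SE, adjusted p = 0.00233). Grin3a, of NMDA receptors, differed by 2.60 (adjusted p = 0.0143) and Gria4, of AMPA receptors, by 2.08 (adjusted p = 0.0233). Unc13c, a priming factor of synaptic vesicles, read 8.82, 8.85 and 8.91 against 7.92, 7.28 and 7.68 (difference 1.23, adjusted p = 0.024).

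Of 10 tested sodium channel subunits outside the nociceptor list 2 were called higher in AN with all arrays and 3 without AN replicate 3, and none lower. Of 16 calcium channel subunits 1 was called lower with all arrays, and 1 higher and 1 lower without AN replicate 3. Scn3a was higher in AN by 1.87 (adjusted p = 0.0475) on its brightest probe and differed by 0.38 (adjusted p = 0.219) on another. Cacna1e, of R-type calcium channels, was lower in AN by a difference of -1.06 (adjusted p = 0.02).

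Of the 21 genes that the study names, 6 were called higher in AN with all arrays on their brightest probe (Gabra3, Gabrb1, Ncam1, Nlgn1, Npy and Unc13c). Without AN replicate 3 it was 9, and none was called lower on that probe in either setting. The study drew this list from these samples, so the list is no independent evidence of direction. Its median difference was 1.06, and 0.71 without the third array.

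Guidance genes showed isolated calls. Slit2, a repellent of axons, read 12.19, 12.13 and 11.79 in AN and 13.08, 12.86 and 13.05 in EN on its brighter probe, a difference of -0.96 (adjusted p = 0.027) that missed 2-fold, while its dimmer probe was called at -1.59 (adjusted p = 0.0467). Slit3 read 7.31, 7.28 and 7.18 against 8.18, 8.13 and 8.16 (difference -0.90, adjusted p = 0.0123). Both Slit genes were thus lower in AN on every array, by less than 2-fold on the probe given first.

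Of 31 semaphorins, plexins and neuropilins 2 were called. Sema3e read 8.25, 8.18 and 8.84 in AN and 6.41, 6.26 and 6.32 in EN (difference 2.10, adjusted p = 0.00884), and Sema3f 11.61, 11.50 and 12.02 against 10.24, 10.16 and 10.21 (difference 1.51, adjusted p = 0.0115). Epha5, an ephrin receptor, read 9.25, 9.08 and 8.95 against 7.70, 7.67 and 7.55 (difference 1.45, adjusted p = 0.00741), with all 4 probes called. Epha8 was lower in AN by a difference of -1.04 (adjusted p = 0.0416) and was not called without AN replicate 3 or with the replicate block. Hoxc5, a positional gene of the Hox C cluster, read 7.27, 7.20 and 7.42 against 8.23, 8.34 and 8.35 (difference -1.01, adjusted p = 0.0123), the only call among 26 tested Hox genes with all arrays.

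Genes of central glia were higher in AN in part. Of 10 astrocyte genes 5 were called higher and none lower, in both settings (background 1.76% higher with all arrays and 3.46% without the third), with a median of 1.19, and Kcnj10 was the one call among 4 satellite glia genes. Kcnj10, a potassium channel of satellite glia and astrocytes, read 13.30, 13.14 and 12.92 against 11.38, 11.31 and 11.17 (difference 1.83, adjusted p = 0.00631). Aqp4, a water channel of astrocytes, read 9.99, 9.96 and 9.72 against 8.43, 8.60 and 7.53 on its brightest probe (difference 1.70, adjusted p = 0.0347), while the dimmest of its 3 probes had -0.38 (adjusted p = 0.401). Slc1a2, a glutamate transporter, differed by 1.29 (adjusted p = 0.00958), Fgfr3 by 1.23 (adjusted p = 0.00718) and Agt by 1.44 (adjusted p = 0.0133), and Slc6a11, a GABA transporter, was at least 2.38-fold higher (adjusted p = 0.0172).

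Other genes of the cord did not all follow. Aldh1l1 was at -0.59 (adjusted p = 0.082) and Slc1a3 at -0.37 (adjusted p = 0.212). Of 12 oligodendrocyte genes 1 was called, Olig1, at 9.32, 9.53 and 9.51 against 8.39, 8.25 and 8.28 (difference 1.14, adjusted p = 0.00958), while the defining markers Mog and Mobp differed by 0.12 and 0.56 (adjusted p = 0.621 and 0.0702). The list averaged 9.27 to 9.41 in AN and 8.85 to 9.08 in EN. Gad2, an enzyme of GABA synthesis, was the one call on the brightest probe among 8 interneuron genes (6.63, 7.11 and 6.51 against 4.67, 4.16 and 5.54, adjusted p = 0.0424, or 0.0767 with the replicate block), with 1 EN array well above background. Gad1, the other such enzyme, differed by -0.22 on its brightest probe, while its dimmer probe was called higher in AN with all arrays (2.103). Slc32a1, the vesicular GABA carrier, differed by 1.18 (adjusted p = 0.0864). The part of tissue from the cord or the ganglion in these differences was not tested.

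A few blood and fat genes were lower in AN. The erythroid list averaged 13.25 to 13.90 in AN and 14.20 to 14.69 in EN, and 2 of 7 members were called lower: Hbb-b1 read 13.48, 13.88 and 13.16 against 14.61, 15.27 and 14.87 (difference -1.41, adjusted p = 0.0361), and Hbb-b2 differed by -1.19 (adjusted p = 0.039). Cidec, a lipid droplet protein, was the one call on the brightest probe among 7 adipocyte genes, at 7.12, 7.03 and 6.72 against 8.72, 8.79 and 8.27 (difference -1.64, adjusted p = 0.0133). Without AN replicate 3, 2 adipocyte genes were called lower. A dimmer probe of Fabp4, of the same list, was called lower in AN with all arrays (-1.903).

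No member was called with all arrays, in either direction, among 14 endothelial genes (median -0.38), 13 macrophage genes (-0.44) or 17 meningeal genes (-0.22). Muscle genes varied within AN more than between the roots: the list of 10 averaged 12.47, 9.72 and 13.46 on the AN arrays and 10.28 to 11.10 in EN, with no call. Bgn, a small proteoglycan of fibroblasts, was lower in AN by a difference of -1.01 (adjusted p = 0.0164) and was not called without AN replicate 3 (-0.98). All 12 cell cycle genes lay above 0 with a median of 0.61, none was called with all arrays on its brightest probe, and 4 were without AN replicate 3 (Bub1, Ccnb1, Cdk1 and Top2a, at 1.03 to 1.16).

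**Figure D4:**
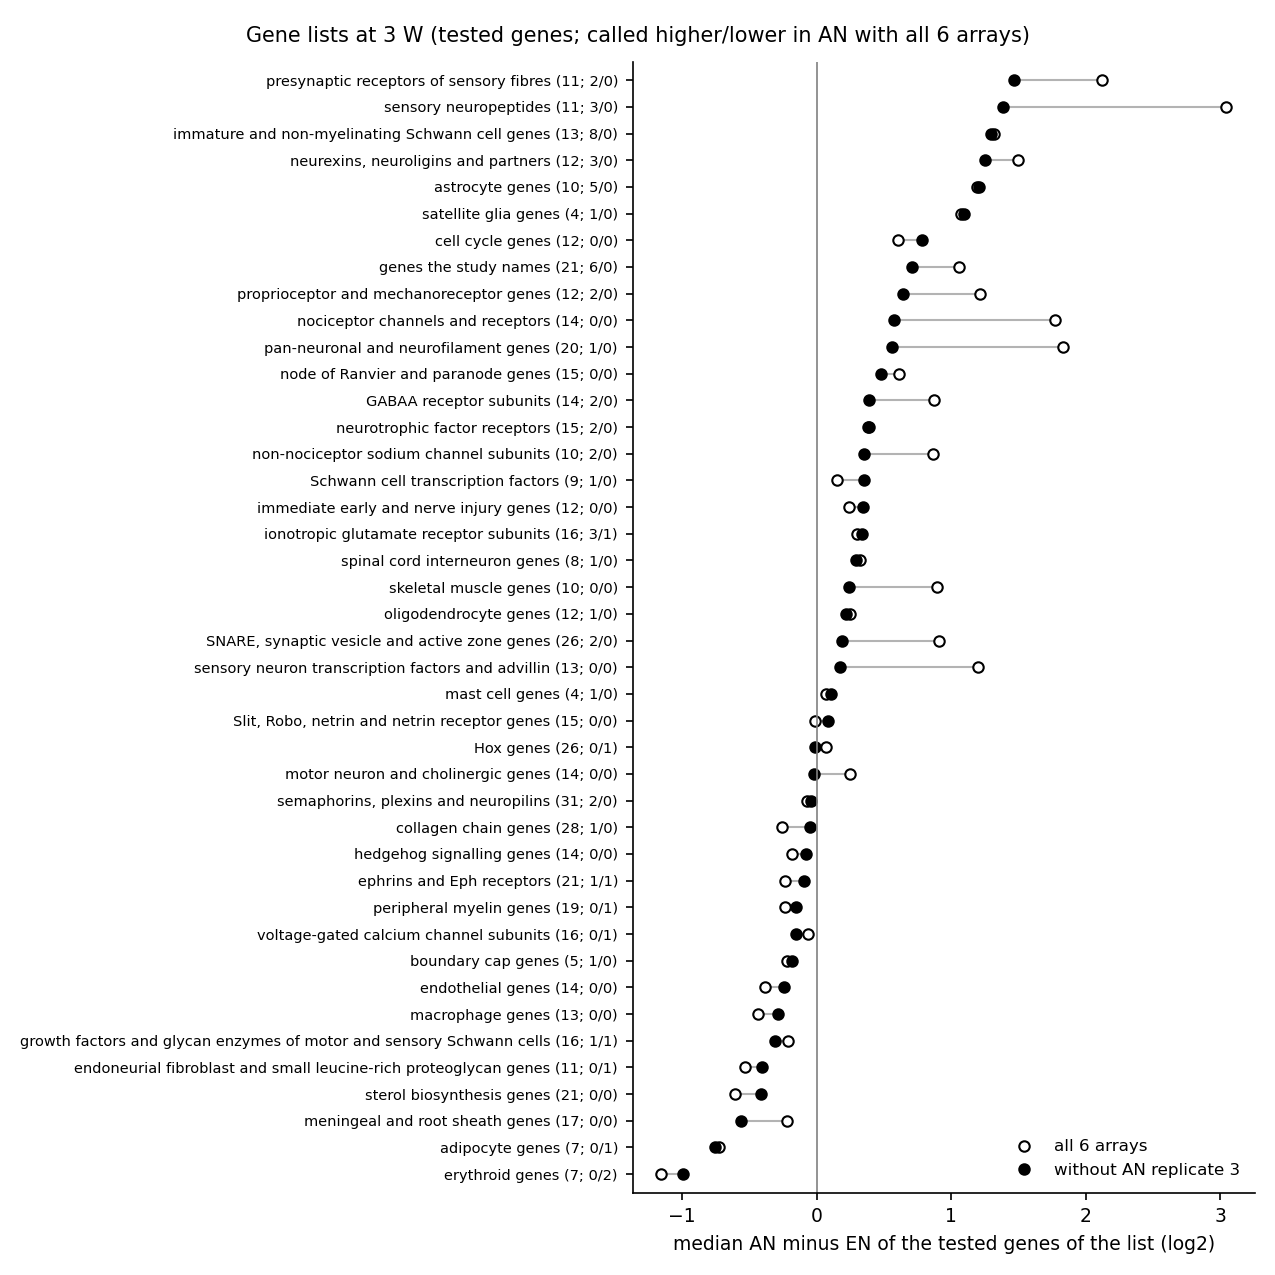
Median difference between AN and EN at 3 W (log2) of the tested genes of each of the 42 lists, with all 6 arrays (open circles) and without AN replicate 3 (filled circles), with the number of tested genes and of calls with all 6 arrays in each direction in brackets. The neuropeptide list moves from 3.05 to 1.39 and the pan-neuronal list from 1.83 to 0.56 when the array is left out, while the immature Schwann cell list stays at 1.32 and 1.29 and the erythroid list has the lowest median (-1.16 and -0.99).

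The other ages used other arrays, normalized together with these. Of the 459 probes called higher in AN at 3 W, 456 were higher in AN at 5 W too (99.3%, against 74.4% of all tested probes that were above 0 at 3 W) and 407 were so over 2-fold (88.7% against 9.59%). At 1 W 437 lay in that direction (95.2% against 61.5%), 227 of them over 2-fold (49.5% against 8.17%). At P0 390 did (85% against 64.7%), 17 of them over 2-fold (3.7% against 0.36%). Of the 322 called lower in AN, 316 were lower at 5 W (98.1% against 77.9%), 166 over 2-fold (51.6% against 2.75%), and 25 were lower over 2-fold at P0 (7.76% against 1.25%). These shares are counts over probes of the same arrays, which are not independent of each other.

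Whether the difference between the roots had changed with age was tested as a difference of differences over the 24 arrays. Between 1 W and 3 W it changed at 12 probes of 10 genes (0.0352% of those tested), and at 78 (0.229%) with the replicate number as a block and 169 (0.496%) without AN replicate 3 at 3 W, the 12 being in both sets. Between 3 W and 5 W it changed at none (0%, limma), with 172 at an unadjusted p below 0.05 and 1 (0.00294%) with the block. One of the 12 was a probe of Ncam1, the second brightest of its 5, where AN minus EN was 0.63 at 1 W and 1.77 at 3 W, a change of 1.13 (adjusted p = 0.0335). Dab1, an adaptor of reelin signalling, had a difference of 0.95 at 1 W, and at 3 W, where no EN array was well above background, its level in AN was at least 4.22-fold higher (adjusted p of the change = 0.0212). C1ql3, a secreted synaptic organizer, went from -0.17 to -1.42 on its brightest probe (change -1.25, adjusted p = 0.0137).

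**Figure D5:**
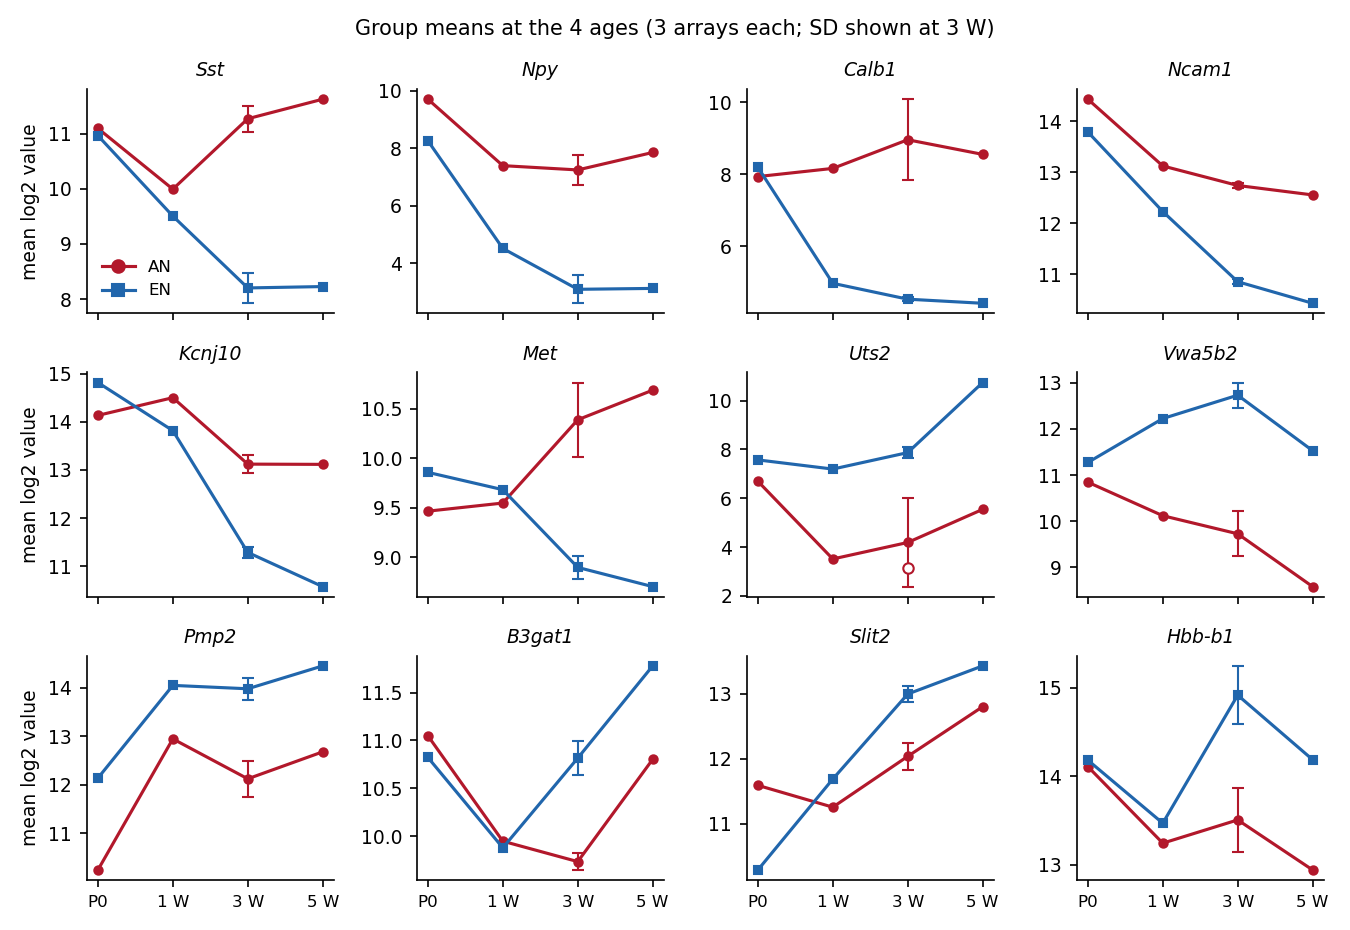
Mean log2 value of 12 genes in AN (red circles) and EN (blue squares) at the 4 ages, 3 arrays each, with the SD as bars at 3 W; the open circle for Uts2 is the mean of AN replicates 1 and 2. The levels of Sst lie apart at 3 W and 5 W (3.07 and 3.39 apart) and together at P0 (0.13), and those of Pmp2 lie apart at each age (from -1.10 at 1 W to -1.89 at birth).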

How the data were processed

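RNA of dorsal (AN) and ventral (EN) roots was hybridised to 1-colour Agilent arrays, whose probe positions are on mm9. The authors deposited scanner intensity files (Agilent Feature Extraction 10.7.1.1) and a table of quantile-normalized log2 values made in GeneSpring, per the methods. The deposited log2 values of the 6 arrays at 3 W were used as given, and the scanner intensity supplied gene names and the background calls. Groups came from the labels. Of 56605 gene probes, the 34045 (60.1%) well above background on all 3 arrays of AN or of EN were tested with limma 3.58.1 in R 4.3.3 (lmFit, eBayes), and a call needed a Benjamini-Hochberg adjusted p below 0.05 and a fold above 2. A gene is given by its brightest tested probe unless another is named, and changes between 1 W and 3 W are given at the probes that passed. Changes with age were contrasts in a fit of all 24 arrays.

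Where no array of a root was well above background, "at least" folds set the brighter root's mean against the mean, per array, of the higher of the probe's value and the lowest value well above background on that array (4.53 to 5.02). Between 61.8% and 65.9% of gene spots were well above background on the 3 W arrays, none was saturated, and the number of arrays limits the precision.

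Named genes were the 12 largest rises and 12 largest falls among called symbols without overlap that were called without AN replicate 3 too, the 21 genes that the study names, the called members of 42 gene lists (otherwise the 2 brightest), and the 10 symbols with the largest excess on AN replicate 3; other members and dimmer probes were named after their values were seen. The comparison, the lists and the genes were chosen with earlier results of these data known. Replicate numbers are in the labels, and a fit with the replicate number as a block was an alternative. Deviations from the group means of same-numbered AN and EN arrays had correlations of 0.204, 0.131 and 0.240 over probes, and those of other pairs had -0.317 to 0.134. These values cannot settle whether the numbers pair the arrays, since the deviations within a root sum to 0. On simulated data with 200 changed probes among 34045, the 3 W comparison recovered 174 (87%) with 5 false calls. How far these figures hold for the real arrays, whose median SD within a root was 0.245 in AN and 0.114 in EN, was not tested. Other alternatives were other normalizations, filters, array weights, the slide as a block and leaving out each array. Promoter sequences are RefSeq's (GRCm38.p6). Some genes counted in the lists are not reported here by name.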

Additional observations from a re-analysis of the deposited data

Results flagged for a closer look

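At 12 probes the difference between the roots (AN minus EN, log2) at 3 W was not that at 1 W by the test of the change itself, with limma over the 24 arrays. The change was 1.13 at a probe of Ncam1, 1.57 as fitted at Dab1, 2.58 at Crh, which encodes corticotropin-releasing hormone, and 3.37 at Slc26a7, an anion exchanger. Crh was not well above background in EN at either age or in AN at 1 W, Slc26a7 was not in EN at either age, and Dab1 was not in EN at 3 W, so the sizes of these 3 changes are not measured. At 3 W the levels of Crh and Slc26a7 in AN were at least 1.49-fold and 1.93-fold higher.

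The change ran toward EN at the other probes. It was -1.25 and -1.5 at probes of C1ql3, -2.58 at Adcy8, an adenylyl cyclase, -3.09 at Cyp2j13, a cytochrome P450, and -1.91 at C430042M11Rik. At Adcy8, Cyp2j13 and C430042M11Rik no EN array was well above background at 1 W, so the sizes of these changes are not measured either. Sybu, syntabulin, which links cargo to kinesin, changed by -4.04, from 3.07 at 1 W to -0.98 at 3 W. Zdhhc2, a palmitoyltransferase, changed by -3.11 and -3.52 at probes of its own. Adcy8 had 2 tested probes, Cyp2j13 4 and Zdhhc2 3, and those given here were not the brightest. The brightest probe of each of these genes did not pass this test. AN replicate 3 read 10.49 for Sybu against 8.68 and 8.83 on the other AN arrays at 3 W, and without it the change was -4.62.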

How the results depend on the processing

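Of the 77 called genes named, none changed direction under any alternative; 76 were still called with 75th percentile scaling, 55 with normexp, 69 with the replicate block and 15 without EN replicate 1. The 781 calls became 395 with normexp background correction, 341 with no filter on dim probes, 1268 with array weights, 1575 at an unadjusted p, 410 at 1 probe per gene symbol, 707 with the replicate block (581 shared), and 82 to 1277 leaving out 1 array. The 12 changes between 1 W and 3 W became 78 with the replicate block, 27 with the slide as a block, 449 at an unadjusted p, and 0 (without EN replicate 3 at 3 W) to 169 leaving out 1 array. The 0 between 3 W and 5 W became 1 with the replicate block, 172 at an unadjusted p, and 0 to 1 leaving out 1 array. Genes uncalled on their brightest probe that changed sign there were Gabra2 (-0.007 without AN replicate 3, with or without the other ages in the fit; -0.007 to 0.37 leaving out 1 array), Gabra4 (-0.278 in both, -0.076 with array weights; -0.278 to 1.283), Tjp3 (-0.007 at the 75th percentile) and, leaving out 1 array, Gabrg3 (-0.067 to 0.136), Nefh (-1.88 to 0.75), Robo1 (-0.67 to 0.22) and Shh (-1.78 to 0.21). The cause was not tested. With 3 arrays a root and 147 called probes dim in a root, many folds are bounds.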
